A study of Mus musculus with 16 samples.

Results

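Regions with a peak after talazoparib in both Tdg knockout (KO) and wild-type (WT) mouse embryonic stem cells, and none with DMSO, were taken from the authors' lists of single-strand break peaks. Peaks of chromosomes 1 to 19 from the 4 lists were merged where they shared at least 1 bp. A merged region was kept when it held a peak of the KO talazoparib list and a peak of the WT talazoparib list, and no peak of the KO DMSO or WT DMSO list. This gave 480 of 60228 merged regions, or 0.797%. The regions were thus chosen by the authors' peak calls, which rest on IP tags, input tags and their fold, so their presence with talazoparib and absence with DMSO are the rule and not a result.

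The cells, embryonic stem cells of the mouse strain C57BL/6JRj, were kept free of serum in 2i medium with 1000 U/ml LIF. The 4 conditions were Tdg KO with 5 nM talazoparib for 24 h, wild type with the same talazoparib treatment, Tdg KO with DMSO and wild type with DMSO. The culture protocol, which is the same for every sample, gives 5 uM 4-OHT for 2 h before each experiment, to cut out a Tdg minigene. The labels do not say whether this step applied to the wild-type cells as well. How long cells stayed in DMSO, and whether a genotype is 1 clone, are not given in the sources used here. Each condition had 3 libraries of pulled-down DNA (IP) and 1 input library, 16 libraries in all. The deposited lists hold 1 value per peak for each condition, so no spread between replicates can be given and no test between conditions was made. The labels put KO and WT libraries on different flow cells, so genotype and flow cell cannot be told apart; talazoparib and DMSO libraries of a genotype shared flow cells. SSB-seq reads breaks in DNA and not expression, so the labelled cell type could not be checked against marker levels.

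Single-strand breaks arise from oxidative damage, from topoisomerases and as intermediates of base excision repair, in which a DNA glycosylase such as TDG removes an altered base and an endonuclease cuts the strand beside it. PARP1 binds such breaks and attaches chains of ADP-ribose to itself and to nearby proteins, which recruits repair factors and releases PARP1 from DNA. Talazoparib blocks the PARP active site and holds the enzyme on the break. In SSB-seq, DNA polymerase I extends from nicks with digoxigenin-labelled nucleotides, and the labelled DNA is pulled down with an antibody.

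The strongest regions and those farthest from any DMSO peak included simple repeats and CpG-rich gene starts, and the sequences below show a CA repeat and 4 gene starts. All are from the plus strand of the mm10 genome (RefSeq copy of GRCm38.p6), 200 bases inside the overlap of the KO and WT talazoparib peaks. The first is an intergenic region among the 5 farthest from DMSO peaks, and it was added to the printed set after its values were seen. Capitals mark runs of at least 4 CA units.
Upstream of Car10, chr11:92995650-92995849: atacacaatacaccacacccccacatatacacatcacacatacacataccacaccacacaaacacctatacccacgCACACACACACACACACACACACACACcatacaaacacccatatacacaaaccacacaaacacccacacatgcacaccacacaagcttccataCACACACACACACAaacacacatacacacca

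The next set shows 4 promoter regions from the top of the density ranking, with CG dinucleotides in capitals. The Nova2 and Slc39a13 promoter regions ranked above Rcc1 but are not printed, and their windows held 12 and 19 CG dinucleotides. The 4 windows shown are thus richer in CG than those 2. They held 31, 24, 23 and 21 CG dinucleotides, in the order printed.
Rcc1 start, chr4:132345446-132345645: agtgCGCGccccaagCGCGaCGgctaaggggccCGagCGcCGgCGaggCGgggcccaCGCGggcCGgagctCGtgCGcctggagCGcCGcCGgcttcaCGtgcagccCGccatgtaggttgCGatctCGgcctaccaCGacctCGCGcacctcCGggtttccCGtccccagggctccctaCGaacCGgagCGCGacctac
Tmem44 start, chr16:30550300-30550499: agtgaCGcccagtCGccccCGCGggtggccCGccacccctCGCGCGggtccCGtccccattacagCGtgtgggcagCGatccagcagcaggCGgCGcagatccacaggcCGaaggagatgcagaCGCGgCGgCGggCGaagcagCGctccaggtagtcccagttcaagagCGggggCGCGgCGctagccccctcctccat
Rasl11b start, chr5:74195086-74195285: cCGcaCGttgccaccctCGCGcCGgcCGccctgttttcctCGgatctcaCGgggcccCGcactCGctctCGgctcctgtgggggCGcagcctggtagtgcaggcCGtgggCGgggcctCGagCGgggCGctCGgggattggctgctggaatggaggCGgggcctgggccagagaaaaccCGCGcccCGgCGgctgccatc
Prpf3 start, chr3:95855886-95856085: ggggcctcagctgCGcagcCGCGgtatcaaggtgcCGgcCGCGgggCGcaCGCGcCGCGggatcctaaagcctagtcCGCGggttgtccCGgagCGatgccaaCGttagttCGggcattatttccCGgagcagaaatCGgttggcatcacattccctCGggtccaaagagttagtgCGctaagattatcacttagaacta

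At the authors' thresholds, the regions were few beside most other combinations of lists. Merged regions held by both DMSO lists and no talazoparib list numbered 3746, and regions of all 4 lists numbered 5638. Regions with both talazoparib lists and at least 1 DMSO list numbered 7274. The KO talazoparib list alone held 7133 regions and the WT talazoparib list alone 4301. Among the combinations of exactly 2 lists, 480 was the smallest count. With each list cut to its 15343 peaks of highest score, 872 regions met the rule, and with at least 3 input tags required in the talazoparib lists, 86 did. The lists differed in length, with 23559 peaks for KO talazoparib, 15343 for WT talazoparib, 35020 for KO DMSO and 28243 for WT DMSO on these chromosomes. Each of the 480 regions held exactly 1 peak of each talazoparib list. They made up 2.04% of KO talazoparib peaks and 3.13% of WT talazoparib peaks.

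**Figure D1:**
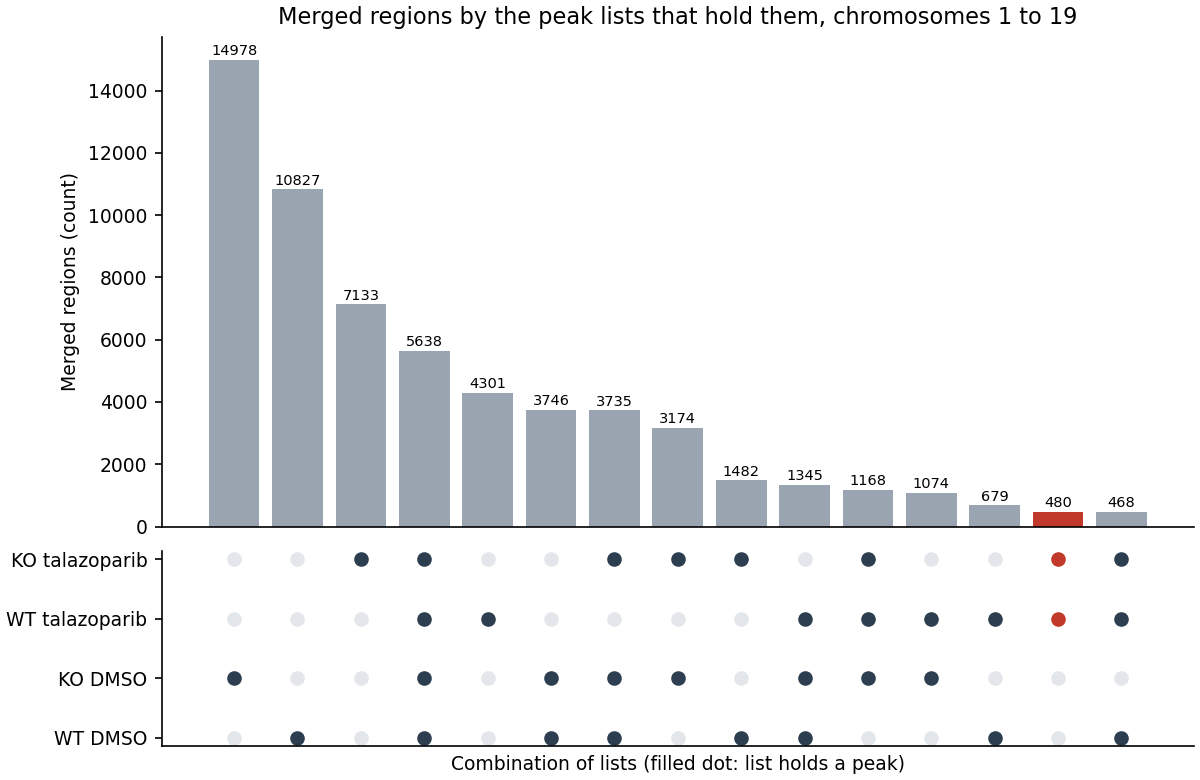
Bars give the number of merged regions on chromosomes 1 to 19 for each combination of the 4 peak lists, and filled dots under a bar name the lists that hold a peak. The red bar is the 480 regions of both talazoparib lists and no DMSO list, beside 3746 regions of both DMSO lists alone and 5638 of all 4 lists.

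Judged by position alone, at 50 bp, the rule was met narrowly by few regions. Membership also hung on the peak thresholds, and the count moved with them, as given in the closing sections. The smallest overlap of the KO and WT talazoparib peaks was 2 bp, and 6 regions had an overlap under 50 bp. Just outside the rule, 2 regions of WT talazoparib alone lay within 50 bp of a region of KO talazoparib alone, the nearest at 11 bp. The smallest gap to a DMSO peak was 1 bp, and 6 regions had a DMSO peak within 50 bp. Of the regions lost to a DMSO peak, 3 overlapped it by less than 50 bp, the least by 3 bp.

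The KO and WT peaks of a region mostly lay on the same sequence. Their median overlap was 467 bp, or 88.9% of the shorter peak, and in 427 of 480 regions the overlap covered at least 50% of the shorter peak. The centres were a median of 151 bp apart and at most 696 bp.

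Peak strength was modest in both talazoparib lists. Tag counts were normalised by the authors to 10000000 IP tags, and IP density is given here as tags per bp over the genome mean, which is set to 1. The KO talazoparib peaks had a median of 6.40 normalised tags (range 3.16 to 337) and a median IP density of 2.59. The WT talazoparib peaks had a median of 4.24 normalised tags (range 2.51 to 147) and a median IP density of 1.90. These densities, which entered the peak calls, lay above those of peaks found in that list alone, at 2.17 for KO talazoparib and 1.57 for WT talazoparib. They lay below those of peaks in regions of all 4 lists, at 5.24 for KO talazoparib and 3.16 for WT talazoparib. By the authors' score, the median member peak stood at percentile 43.3 of the KO talazoparib list and 40.8 of the WT talazoparib list.

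Few input tags stood behind many of these peaks. The median was 3.5 input tags in KO talazoparib peaks and 1.5 in WT talazoparib peaks, and 32.5% of the KO and 78.1% of the WT peaks had fewer than 3. The authors' fold over input, used only within a list, had a median of 5.01 in the KO talazoparib peaks and 7.60 in the WT talazoparib peaks, and its floor in every list was 4. In 86 regions both peaks had at least 3 input tags, in 101 both folds reached 6, and in 203 both IP densities reached 2. The estimated depth was 66.4 M IP tags and 28.3 M input tags for KO talazoparib, and 83.8 M IP tags and 24.5 M input tags for WT talazoparib. Depth was 69.2 M IP and 24.8 M input tags for KO DMSO, and 87.0 M IP and 38.1 M input tags for WT DMSO.

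KO talazoparib density exceeded WT talazoparib density in 419 of 480 regions (87.3%, Wilson 95% interval 84.0% to 90.0%). The median KO over WT difference was 0.51 on the log2 scale (95% interval 0.48 to 0.55), a ratio of 1.43. Regions of all 4 lists with 1 peak of each talazoparib list gave a larger value of the same measure, a median log2 difference of 0.65 (0.63 to 0.67) over 5359 regions, with KO denser in 92.1%. The offset between genotypes was thus shared with regions that DMSO lists also held, and flow cell and genotype cannot be told apart. The lowest member peak held an estimated 20.99 IP tags in KO talazoparib and 21.04 in WT talazoparib. At the depth of each list these were 3.16 and 2.51 normalised tags. The part of these unequal lower limits in the offset was not tested. Across the 480 regions, log2 densities of the KO and WT peaks had a Pearson r of 0.69 and a Spearman rho of 0.47. Without the 2 regions of highest input density r was 0.55. Regions share base composition and mappability between libraries, so these correlations are descriptions. Intervals throughout cover counting error or spread over regions only, and leave out differences between cultures and libraries, and no test was made between sets of regions.

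Regions with a CA-repeat motif departed from this offset. Of the 480 regions, 107 held CACACACA on either strand in the central 300 bp. In these 107 the KO talazoparib density had a median of 2.27 and the WT talazoparib density a median of 2.15, a median log2 difference of 0.10 (0.02 to 0.21). In the 373 regions without the motif the medians were 2.78 for KO talazoparib and 1.78 for WT talazoparib, a median log2 difference of 0.59 (0.55 to 0.63). WT density was the higher one in 38 of the 107 regions with the motif and in 23 of the 373 without it. Input tags also differed between these groups. The median was 2.5 input tags in KO talazoparib and 2 in WT talazoparib with the motif, and 4 in KO talazoparib and 1 in WT talazoparib without it, and the part of input in the density difference was not tested.

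**Figure D2:**
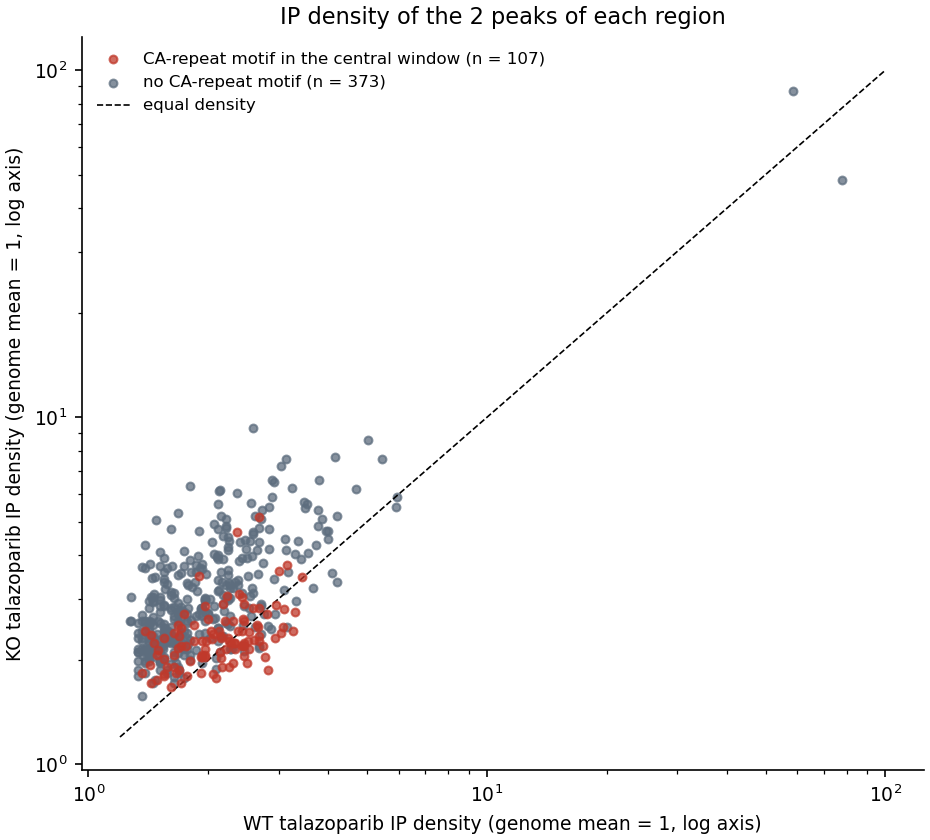
Each point is 1 of the 480 regions, with KO talazoparib IP density on the y axis and WT talazoparib IP density on the x axis, both on log axes with the genome mean at 1. Most grey points (no CA-repeat motif, 373 regions) lie above the dashed line of equal density, while red points (107 regions) lie nearer to it, and 2 regions stand far from the rest.

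CA dinucleotide repeats are common microsatellites of the mouse genome. CACACACA, searched on both strands, was present in 22.3% of the 480 regions (Wilson 95% interval 18.8% to 26.2%), against 10.6% of all merged regions. The share was 10.2% in regions of KO talazoparib alone and 32.5% in regions of WT talazoparib alone. It was 37.3% in regions held by both WT lists and no KO list, 6.14% in regions held by both KO lists and no WT list, and 4.204% in regions of all 4 lists. The 480 regions thus lay between those of KO talazoparib alone and those of WT talazoparib alone. Among the 107 regions with the motif, the longest CA run had a median of 18 bases and reached 61 bases. Only 4 of them were at promoters, 51 were intronic and 45 intergenic. Their median soft-masked share was 73.5%, against 12.4% in the 373 others, and their median CpG content was 0.44 per 100 bp, against 2.05.

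The CA-repeat regions lay farther from DMSO peaks. Their median distance to the nearest DMSO peak was 12986 bp (95% interval 7164 to 19791), against 3478 bp (2877 to 4169) in the regions without the motif. Of the 5 regions farthest from a DMSO peak, 3 held CACACACA. The region 47027 bp upstream of Wdr72 (chr9:74062991-74063667) had 5.72 normalised tags in KO talazoparib and 6.02 in WT talazoparib, with 1.5 input tags in each. Its nearest DMSO peak was 797834 bp away. The region 102275 bp upstream of Car10 (chr11:92995396-92996111) had 5.12 normalised tags in KO talazoparib and 5.25 in WT talazoparib, and its nearest DMSO peak was 620641 bp away. The region 176898 bp upstream of Ppargc1a, which encodes a coactivator of mitochondrial biogenesis, had 4.14 and 4.65 normalised tags in KO and WT talazoparib, was wholly soft-masked (100%) and lay 368634 bp from a DMSO peak. In all 3 the KO and WT densities were close to each other.

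Tracts of TTAGGG, the repeat unit of mammalian telomeres, were rarer. On either strand TTAGGG occurred in the central 300 bp of 6.25% of the 480 regions, against 10.8% of all merged regions. Counted over the whole region, 2 of the 480 held at least 10 copies (0.417%, Wilson 95% interval 0.114% to 1.51%), against 50 of all 60228 merged regions (0.083%). The share was 0.210% for KO talazoparib alone and 0.116% for WT talazoparib alone. It was 0.442% (3 of 679) for both WT lists alone, and 0.641% (3 of 468) for both talazoparib lists with WT DMSO. Such tracts were thus not particular to the 480 regions. The count of 10 was chosen after the tracts were seen. The intergenic chromosome 12 region (chr12:93576837-93577353) held 40 copies. It had 9.18 normalised tags in KO talazoparib and 7.10 in WT talazoparib, with 3.5 and 3 input tags, and its nearest DMSO peak was 1726949 bp away. By the lower of its 2 folds (7.43 in KO talazoparib, 5.80 in WT talazoparib) it also ranked first among regions with at least 3 input tags in both lists.

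The chromosome 3 region (chr3:159939247-159939576), within 1 kb past the end of Wls, held 28 copies of TTAGGG. It had 108 normalised tags in KO talazoparib and 72.3 in WT talazoparib, and IP densities of 87.1 and 58.5. Its input density was also high, at 16.8 in KO talazoparib and 7.11 in WT talazoparib. Only 1 other region reached such values. It lay near the centromeric end of chromosome 4 (chr4:3089348-3091196) with IP densities of 48.4 in KO talazoparib and 77.8 in WT talazoparib and input densities of 11.9 and 19.3, and 73.5% of it was soft-masked. In these 2 regions input and IP tags were high together, and IP density is not corrected for input. The next region by the lower of its 2 densities had 5.88.

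Gene starts formed another group. By the position of the region's centre, 100 of 480 regions (20.8%, Wilson 95% interval 17.4% to 24.7%) lay at a promoter, from 1 kb upstream to 100 bp downstream of an annotated start in GENCODE. The same share was 22.2% over all merged regions, 11.4% for KO talazoparib alone, 9.02% for WT talazoparib alone, 24.5% for both DMSO lists alone and 67.3% for all 4 lists. A further 170 regions (35.4%) were intronic, 148 (30.8%) intergenic, 30 exonic and 23 at transcript ends, and 7 lay in 3′ UTRs and 2 in 5′ UTRs. The share at promoters was near that of all merged regions and above that of either talazoparib list alone at the authors' peak thresholds. Other combinations of exactly 2 lists were also above those single lists. They had 18.85% (both WT lists), 20.72% (KO talazoparib and WT DMSO), 25.65% (both KO lists) and 29.61% (KO DMSO and WT talazoparib). For regions that met the rule, the share was 11.9% with a fold of at least 6 required in the talazoparib lists. With at least 3 input tags required there, it was 48.8%.

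**Figure D3:**
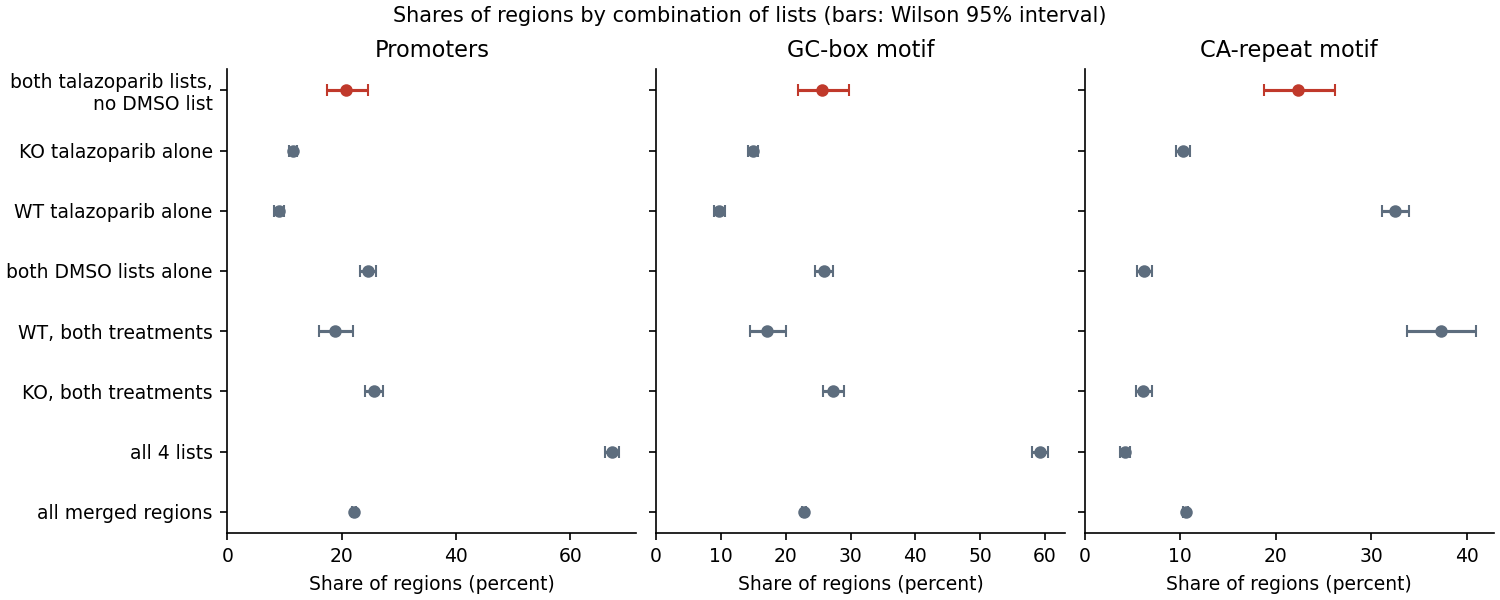
Points give the percentage of regions at promoters (left), with the GC-box motif (middle) and with the CA-repeat motif (right) for 8 sets of regions, and bars are Wilson 95% intervals. The 480 regions of both talazoparib lists (red) have 20.8% at promoters, 25.6% with the GC-box motif and 22.3% with the CA-repeat motif, against 22.2%, 22.9% and 10.6% of all merged regions.

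Base composition followed the annotation. The promoter regions had a median of 5.65 CpG per 100 bp, a GC content of 57.9% and a soft-masked share of 8.23%. The intronic regions had 1.29 CpG per 100 bp and 21.7% soft-masked sequence, and the intergenic regions 1.17 and 34.0%. Promoter regions were also denser in tags, with a median IP density of 3.41 in KO talazoparib and 2.29 in WT talazoparib, against 2.43 and 1.71 in introns and 2.42 and 1.79 between genes. Input density was higher at promoters as well, with 0.709 in KO talazoparib and 0.411 in WT talazoparib, against 0.467 and 0.216 in introns, and the part of input in this order was not tested. The nearest DMSO peak was a median of 5433 bp from a promoter region, and 21 of the 100 had one within 1 kb.

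Over all 480 regions the median GC content was 51.4% (50.6% to 52.2%), against 51.1% over all merged regions. The median CpG content was 1.75 per 100 bp in both sets. The soft-masked share had a median of 16.9% (14.3% to 19.4%), against 13.2%, and 23.5% of the regions were at least 50% masked, against 12.7% of all merged regions. At least 50% was masked in 18.53% of regions of KO talazoparib alone and 34.29% of regions of WT talazoparib alone. For both WT lists alone it was 36.23% of regions, and for both KO lists alone 7.278%. GGGCGG, the core of the GC box bound by Sp1-type factors, was found on either strand in 25.6% (21.9% to 29.7%) of the central 300 bp windows, against 22.9% of all merged regions. CCGGAAG, an ETS-type motif, was found in 6.67%, against 5.03%, and CCAAT in 25%, against 29.9%. The interval of the 480 regions held the share of all merged regions for GGGCGG and CCGGAAG and not for CCAAT.

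**Figure D4:**
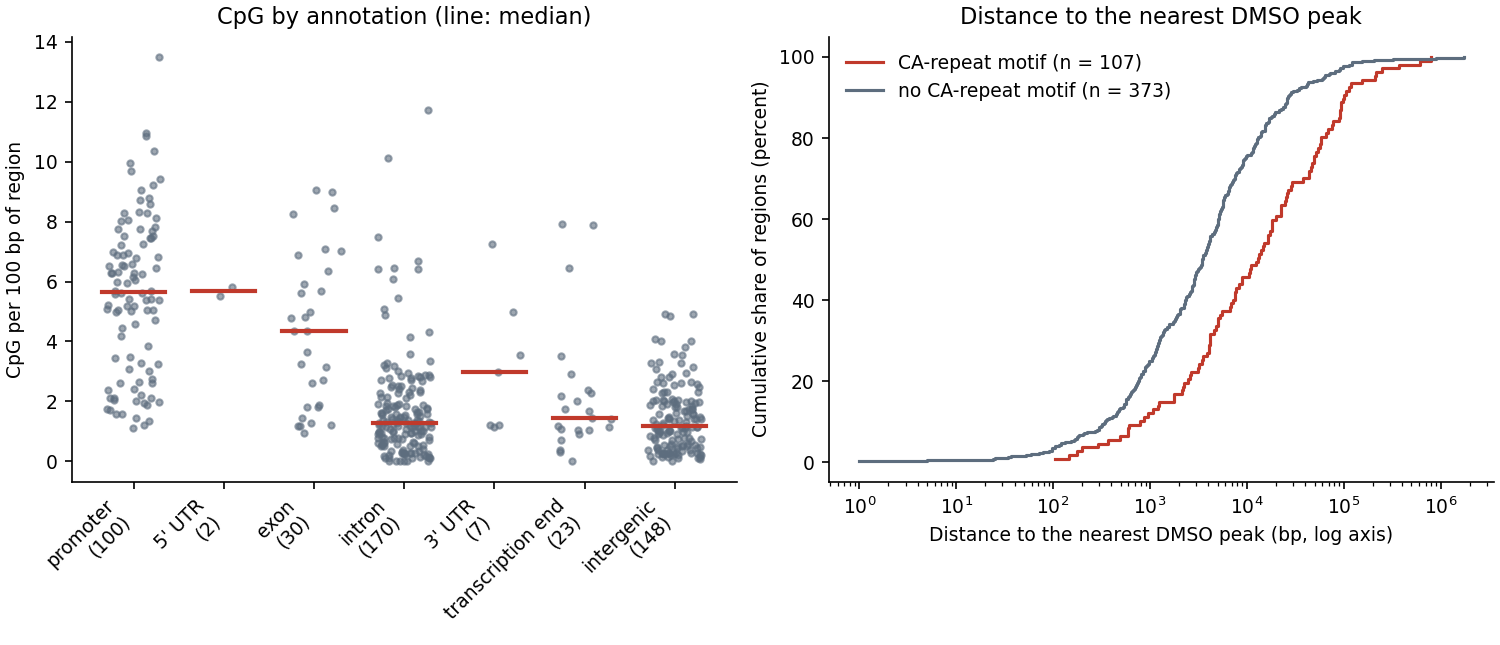
Left, each point is the CpG content of 1 of the 480 regions in CpG per 100 bp, by annotation of its centre, with the number of regions in brackets and a red line at the median, which is 5.65 at promoters and 1.17 between genes. Right, curves give the cumulative percentage of regions against the distance to the nearest DMSO peak in bp on a log axis, with medians of 12986 bp for regions with the CA-repeat motif and 3478 bp for the others.

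The median distance to the nearest DMSO peak was 4190 bp (3564 to 5082), and 106 regions (22.1%) had a DMSO peak within 1 kb. For regions of KO talazoparib alone the median was 4477 bp, with 19.5% within 1 kb, and for WT talazoparib alone 6432 bp, with 16.3% within 1 kb.

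Most of the densest regions lay at gene starts, after the 2 repeat regions above. At the start of Prpf3, which encodes a splicing factor of the U4/U6 snRNP, the region (chr3:95855276-95856358) had 25.1 normalised tags in KO talazoparib and 21.5 in WT talazoparib. Its nearest DMSO peak was 25070 bp away. At the start of Rasl11b, a small GTPase of the Ras family, the region had 21.8 normalised tags in KO talazoparib and 14.1 in WT talazoparib. It lay 1812 bp from a DMSO peak. The 2 starts therefore differed in how near a DMSO peak came.

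The Rcc1 start, of the chromatin-bound exchange factor for Ran, had 9.79 normalised tags in KO talazoparib and 11.0 in WT talazoparib, so WT was the higher one, although IP density over the shorter KO peak was 5.18 in KO and 4.196 in WT. The Slc39a13 start, of a zinc transporter, had 24.9 and 15.7 normalised tags in KO and WT talazoparib. The Nova2 promoter, of a neuronal splicing regulator, had 16.2 and 11.9. A DMSO peak lay 632 bp from the Slc39a13 region and 284 bp from the Nova2 region.

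The Uggt1 start, of the enzyme that senses misfolded glycoproteins in the endoplasmic reticulum, had 18.1 normalised tags in KO talazoparib and 9.43 in WT talazoparib. The Dhx16 start, of a splicing helicase, had 15.7 and 12.8, and the Tmem44 start had 11.1 and 11.2. The KO and WT peaks at Tmem44 were thus of like height. Further strong regions lay near the start of 1810010H24Rik (15.0 and 12.3), 1198 bp upstream of a Ciz1 start and in an intron of a longer Ciz1 transcript (11.4 and 7.52), and at a transcript end inside the overlapping genes Gdf1 and Cers1 (14.5 and 7.87), all in KO and WT talazoparib normalised tags. The last of the 15 densest regions was intergenic, 23403 bp upstream of Gm28694, with 15.7 normalised tags in KO talazoparib and 8.95 in WT talazoparib.

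Among regions with at least 3 input tags in both lists, the highest folds after the chromosome 12 tract were at the Ddx59 start, an intergenic site 5834 bp upstream of D730005E14Rik, and introns of Sergef and Palm2. The Ddx59 start, of an RNA helicase, had 16.2 normalised tags in KO talazoparib and 11.8 in WT talazoparib, with folds of 6.55 and 5.79 and no DMSO peak within 11740 bp. The Zfp804b 5′ UTR region stood 898341 bp from a DMSO peak, the second farthest, with 5.19 normalised tags in KO talazoparib and 3.28 in WT talazoparib on 1 input tag each.

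The longest regions were wide in the KO list. The region 2466 bp upstream of Ppp1r9b (chr11:94987001-94990138) spanned 3137 bp, with 49.5 normalised tags in KO talazoparib and 5.37 in WT talazoparib, where the WT peak covered 500 bp of it. The region 10622 bp upstream of Smug1, which encodes a uracil-DNA glycosylase of base excision repair, spanned 1955 bp and had 30.8 normalised tags in KO talazoparib and 6.08 in WT talazoparib. The Gramd1b promoter region spanned 1945 bp (29.2 and 16.0 normalised tags in KO and WT talazoparib), and the Yjefn3 promoter region 1732 bp (26.3 and 5.91). In these 4 regions KO tag counts exceeded WT counts, and the KO peaks were longer.

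Genes with such a region in the body or within 5 kb numbered 408 of 20807 protein-coding genes (1.96%), and 139 genes had one at a start. Their median length was 36.7 kb, against 17.6 kb for all protein-coding genes, and counts were not adjusted for gene length. More than 1 region fell to 13 genes. The readthrough model Gm20388, 4435 kb long, held 4. With 2 each followed Enah, an actin regulator, Pmepa1, an inhibitor of TGF-beta signalling, Vsig10, Samd4b, Chst8, Clmp, Osbpl10, 1810010H24Rik and Adarb2. Fhit, Ppp1r16a and Kcnj6 were tied with these at 2.

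Signalling genes of the FGF and Wnt pathways, which 2i medium acts on, had a region in 5 of 50 (10%, Wilson 95% interval 4.35% to 21.4%). The share over all protein-coding genes was 1.96%. Among the gene lists looked at, this one had the highest share, so it is not read as a difference. All 50 had some merged region, against 75.99% of all protein-coding genes. Fgfr2, an FGF receptor, had its region (chr7:130546484-130547846) where its annotated gene model overlaps Nsmce4a, 216 bp downstream of an Nsmce4a start, with 23.2 normalised tags in KO talazoparib and 18.3 in WT talazoparib. That gene model held 118 merged regions of all kinds, the most among these 5 genes. Spred1, an inhibitor of Ras to ERK signalling, had 6.02 normalised tags in KO talazoparib and 7.70 in WT talazoparib within 1 kb of a start. Gsk3b, the kinase that marks beta-catenin for degradation, had 6.32 normalised tags in KO talazoparib and 5.37 in WT talazoparib at the end of an annotated transcript inside the gene body. Spred1 had more normalised tags in WT talazoparib, and also the higher IP density there (2.49 in KO, 3.16 in WT).

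Tcf7, a Wnt-responsive transcription factor, had a promoter region with 12.5 normalised tags in KO talazoparib and 6.86 in WT talazoparib. Over the longer KO peak, IP density was 2.45 in KO talazoparib, against 2.88 in WT talazoparib. The Myc promoter region (chr15:61984832-61986321) had 24.8 and 10.1 normalised tags in KO and WT talazoparib, and its nearest DMSO peak was 973 bp away. The pluripotency factor Stat3, which acts downstream of LIF, had an intronic region with 3.54 normalised tags in KO talazoparib and 2.51 in WT talazoparib on 2 and 0.5 input tags. It was the 1 gene with a region among 29 of core and naive pluripotency.

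Lefty2, a Nodal antagonist and the 1 gene of 17 in the primed epiblast list, had an exonic region with 21.4 normalised tags in KO talazoparib and 6.68 in WT talazoparib, 407 bp from a DMSO peak. Developmental regulators silenced by Polycomb had a region in 3 of 91 genes (3.30%, 1.13% to 9.25%), against 1.96% of all protein-coding genes. The Evx1 promoter region, of a homeobox gene, had 7.90 and 4.29 normalised tags in KO and WT talazoparib, and no other combination of lists had a region at that gene. Nkx2-2, a neural homeobox gene, had 9.86 and 4.24 in an exon. Both were higher in KO talazoparib, as most of the 480 regions were.

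Very long, late-replicating genes had a region in 3 of 33 (9.09%, 3.14% to 23.6%), against 1.96% of all protein-coding genes. The median length was 1211 kb in that list and 17.63 kb over all protein-coding genes. Counts were not adjusted for length, so these shares are not read as a difference. Fhit, a gene at a common fragile site, held 2 intronic regions. The first (chr14:9565947-9566712) had 7.15 normalised tags in KO talazoparib and 5.73 in WT talazoparib and lay 247185 bp from a DMSO peak. The second (chr14:11104349-11105124) had 3.54 and 4.95 and lay 56558 bp from one. Cdh13, a cadherin gene, had 4.37 and 3.88 in an intron. Prkg1, which encodes a cGMP-dependent kinase, had 7.08 and 3.70 at a start, 99366 bp from a DMSO peak.

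None of 33 genes of base excision and strand break repair had a region (0%, Wilson upper limit 10.4%), although 32 had a merged region of another combination. The same held for 33 genes of homologous recombination and the Fanconi pathway, 26 of DNA methylation and demethylation, 27 p53 targets, 21 of glycolysis, 51 imprinted and 27 germline genes. No region lay at 68 replication histone genes, 79 cytosolic ribosomal protein genes, 39 Hox genes, 57 clustered protocadherin genes or 1457 olfactory and vomeronasal receptor genes. With 1.96% of all protein-coding genes holding a region, a list of under 100 genes would hold few or none, and its zero is not read as a difference. For the 1457 receptor genes the Wilson upper limit was 0.263%, and only 76 of them (5.22%) had a merged region of any kind, against 76.0% of all protein-coding genes. The marker lists of extraembryonic endoderm and fibroblasts, 20 genes each, also held none. The histone and ribosomal protein genes did carry other merged regions, at 65 of 68 and 79 of 79.

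Counts by chromosome ran from 10 on chromosome 18 to 52 on chromosome 11. Chromosome 11 held 42.6 regions per 100 Mb and chromosome 18 held 11.0. As a share of all merged regions on the chromosome, the values were 0.924% for chromosome 11 and 0.622% for chromosome 18, and the range over chromosomes was 0.590% (chromosome 10) to 1.15% (chromosome 13).

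The number and makeup of the regions moved with the peak threshold. With at least 3 input tags required in the talazoparib lists, 86 regions were left, 48.8% of them at promoters, and with a fold of at least 6 required there, 101 were left, 11.9% at promoters. With each list cut to equal length by score, 39.6% of the 872 regions were at promoters.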

How the data were processed

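Lists of single-strand break peaks from 12 IP and 4 input libraries were used, 1 list per condition. Per the submitters' processing notes, the tools were HOMER 4.11, Picard 2.9.2, Bowtie2 2.3.4.2 and R 3.6 on mm10, and their settings are not given in the sources used here. Per the file headers, the columns are those of HOMER findPeaks. The deposited normalised tag count is a signal, IP tags per 10000000. The deposited input tags are a signal in steps of 0.5. The authors also deposited IP tags rescaled to the depth of the input library (unit: other). Dividing them by the input tags gave the authors' fold, a ratio, within 1% for 100% of peaks. The deposited p-value and score, HOMER's own, were used only to filter or rank within a list. Coordinates are printed as deposited, with the base of their starts not stated.

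Peaks were merged in Python 3.11.15 with pandas 2.3.3 (merging was tested on simulated peaks). Regions were annotated by their centre with GENCODE M21 (promoter, transcript end, 5′ UTR, 3′ UTR, exon, intron, in that order), and sequence was read with pysam 0.24.0. Soft-masked bases are repeats marked in the genome file. Input totals came from the ratio of scaled to normalised tags, and IP totals from the step of low normalised tag counts (100% of low values on the step). Density divides by the mean over 2648 Mb. Shares have Wilson and medians order-statistic 95% intervals (SciPy 1.17.1). Named regions were the 15 densest by the lower of both densities, the 5 of highest lower fold with at least 3 input tags in both lists, the 5 longest and the 5 farthest from DMSO peaks. Named genes were the 10 with most regions and every list gene with a region, apart from 1 list gene and some sequences that are not reported here. Regions, lists and motifs were chosen with earlier results of these data known. Alternatives changed the overlap, gaps, fold, input, p-value, list length, chromosomes and promoter definition. Sequences on chromosome 18 are not printed.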

Additional observations from a re-analysis of the deposited data

Results flagged for a closer look

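Outside the chromosomes analysed, the same rule was met by 4 of 569 merged regions of chromosome X (0.703%) and by 5 of 42 regions of unplaced contigs (11.9%). Neither set entered the results above. On the contigs no region was held by both DMSO lists alone, while chromosome X had 29 such regions. Chromosome Y (5 regions) and the mitochondrial genome (2 regions) had 0 regions that met the rule.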

How the results depend on the processing

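No paired analysis was possible because the lists hold no values per library, and for the same reason no library could be left out. The 480 regions became 101 with a fold of at least 6 in the talazoparib lists, 86 with at least 3 input tags there, 151 with a p-value of at most 1e-06 there, 212 with that p-value in all lists and 872 with lists of equal length. The other 6 alternatives gave 327 to 489.

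In those same 5 settings the promoter share was 11.9%, 48.8%, 29.8%, 34.0% and 39.6%. The median GC was 48.9%, 56.7%, 53.1%, 53.3% and 54.1%, and the median CpG 1.42, 5.05, 2.19, 2.55 and 2.96 per 100 bp. The soft-masked median was 30.0%, 10.2%, 14.5%, 13.9% and 11.5%. A fold of at least 6 in all lists gave 36.6% at promoters and 2.08 CpG. Bridging gaps of up to 5 kb gave 1.45 CpG, 49.4% GC and 20.96% masked. Keeping only regions with at least 3 input tags in both peaks left the same 86 regions as that limit in the talazoparib lists. Its values (48.8%, 56.7%, 5.05 and 10.2% for promoter share, GC, CpG and masking) are thus a repeat and not a second result. An IP density of at least 2 in both peaks gave 34.0% at promoters, 53.2% GC and 2.63 CpG. Counting 1 kb on either side of a start gave 29.0% at promoters, and protein-coding transcripts alone 15.2%. A 300 bp window gave 52.7% GC. List genes with a region numbered 13, and 5 within 1 kb of a start. The cause of these shifts was not tested. Leaving out the 2 densest regions, an alternative chosen after seeing the data, kept the promoter share and the 3 medians within their intervals. Few input tags, under 3 in 78.1% of the WT talazoparib peaks, limit how well any 1 region is measured.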
